A study of Homo sapiens with 4 samples.

Results

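The WNT pathway and intestinal stem cell genes are a list of 35 genes that carry the WNT signal, restrain it, respond to it or mark the stem cells at the base of the intestinal crypt. They were taken by symbol from a list drawn up for their roles, with earlier results of these data known. A probe set, the group of array probes that reports 1 transcript, was named for 33 of them, and of several probe sets for a gene the brightest on average was used. The highest reading of 30 genes lay at or above 5.73, the median of all log2 values in the table, which served as the filter on low values. These 30 stand among 13651 genes past the filter, of 19775 named in all. DKK4, APCDD1 and OLFM4 did not pass, and PORCN and TCF7 were not analysed here.

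HT29 and Colo205 are established human colon cancer cell lines, both known to carry an activating BRAF mutation and truncating mutations of APC. Resistant derivatives, HT29RC and Colo205RC, were obtained from them by culture in rising concentrations of PLX4720, an inhibitor of the kinase BRAF. All 4 cultures were kept in medium with 10% serum, and PLX4720 was withdrawn from the resistant lines for 24 h before RNA was collected, so no array shows cells under drug. The parental group and the resistant group each held 2 arrays, 1 of HT29 and 1 of Colo205, and the number of clones in a resistant line is not given in the labels. With 1 array for each line and state, a difference within a line has no replicate, and the spread used below is that between the lines.

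WNT proteins bind frizzled receptors and the co-receptors LRP5 and LRP6. The signal keeps a complex built on AXIN and APC from marking beta-catenin for destruction, and beta-catenin then acts with DNA-binding proteins of the TCF and LEF family to turn on target genes. Several targets, such as AXIN2, NKD1, RNF43 and ZNRF3, restrain the pathway in turn. In the normal colon this signalling maintains crypt stem cells, which are marked by LGR5, ASCL2, SMOC2 and OLFM4. In most colon cancers loss of APC keeps the pathway active without a ligand.

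The arrays were alike in their overall level, with medians over all probe sets from 5.70 to 5.75. The 24 poly-A spike control probe sets, which read RNA added during labelling, had median differences of -0.43 in HT29 and -0.72 in Colo205 between resistant and parental arrays. All 7 epithelial markers passed the filter, and EPCAM, CDH1, KRT8, KRT18 and KRT19 read 12.66 or more on every array. CDX2, an intestinal transcription factor, lay below the filter value in both parents, at 5.17 in HT29 and 5.66 in Colo205. CDX2 read 6.52 in HT29RC and 6.11 in Colo205RC, higher by 1.35 and 0.45, and KRT19 was higher by 1.11 in HT29RC and 0.28 in Colo205RC. Of markers of other cell types, 3 of 6 immune, 2 of 6 fibroblast and 2 of 4 endothelial ones lay below the filter value on all 4 arrays, namely PTPRC, CD3E, CSF1R, COL1A2, COL3A1, CDH5 and KDR. Those past it were LYZ, at 13.46 to 14.03, CD79A, CD14, COL1A1, DCN, PDGFRB, LUM, PECAM1 and VWF. LUM was higher by 1.65 in HT29RC, from 5.14 in HT29. LUM and CDX2 passed the filter through resistant arrays alone. The filter thus fixed the upward direction of their differences given here, and they support none. The log2 of the summed fibroblast level was 8.59 and 8.41 in the parental and 8.81 and 8.53 in the resistant arrays of HT29 and Colo205. For immune markers it was 14.06 and 13.50 against 13.59 and 13.51, and for endothelial markers 7.33 and 7.01 against 7.88 and 7.20. The part of these markers in the results below was not tested.

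**Figure D1:**
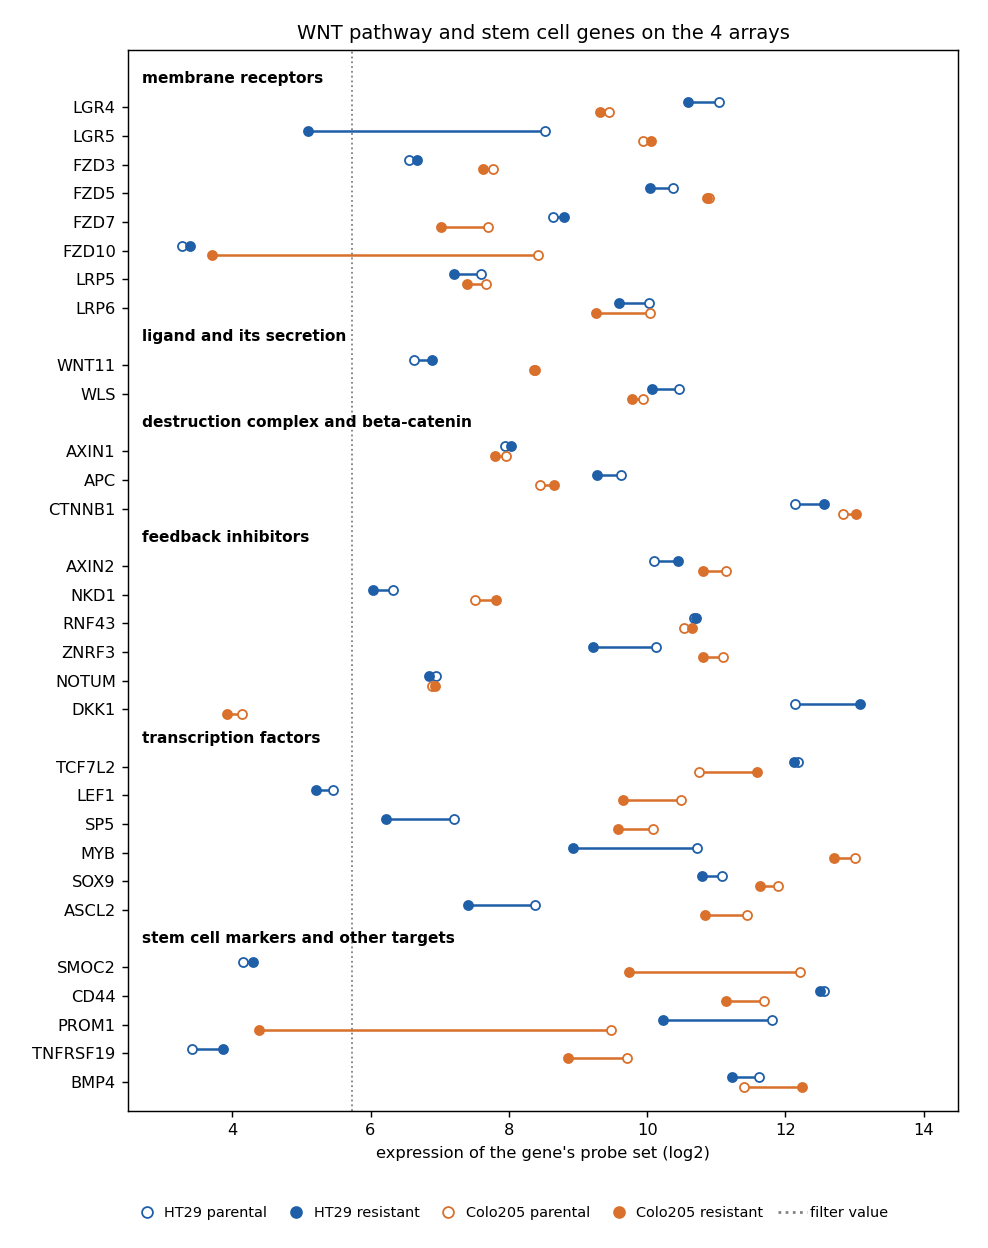
Log2 expression of the 30 genes past the filter on the 4 arrays, grouped by role. Open circles are parental and filled circles resistant arrays, HT29 in blue and Colo205 in orange, and the dotted line is the filter value of 5.73. The long lines belong to LGR5 in HT29 and to FZD10, SMOC2 and PROM1 in Colo205.

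Promoter windows of 300 bases, 250 before to 50 after a transcript's start, were taken from RefSeq (GRCh38.p14) and searched on both strands for CTTTGA, the core of the TCF and LEF recognition sequence, and for CTTTGAT, a longer form that contains it. A window was matched for 18 of the 30 genes, the others being ASCL2, AXIN2, FZD3, FZD7, FZD10, LGR5, LRP6, NKD1, NOTUM, SOX9, WNT11 and ZNRF3. Windows of 3 genes held the core: SP5, lower in both resistant lines, PROM1, lower in both with a large difference in Colo205, and DKK1, far higher in HT29 than in Colo205. All 3 are shown, and a link between the matches and these differences was not tested. The core was in 12.9% of all 35116 windows and in 3 of the 29 windows of the listed genes. The longer form was in 2.62% of all windows and in 2 of the 29. Each sequence runs 5′ to 3′ on the strand of its gene, with every match in capitals.
SP5 (chr2:170715087-170715386, plus strand): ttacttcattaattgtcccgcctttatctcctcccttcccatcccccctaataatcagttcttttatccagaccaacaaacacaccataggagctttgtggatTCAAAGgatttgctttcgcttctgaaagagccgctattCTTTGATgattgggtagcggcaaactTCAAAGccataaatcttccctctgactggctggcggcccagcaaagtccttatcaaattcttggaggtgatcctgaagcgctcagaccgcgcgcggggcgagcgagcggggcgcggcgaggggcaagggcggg
PROM1 (chr4:16076069-16076368, minus strand): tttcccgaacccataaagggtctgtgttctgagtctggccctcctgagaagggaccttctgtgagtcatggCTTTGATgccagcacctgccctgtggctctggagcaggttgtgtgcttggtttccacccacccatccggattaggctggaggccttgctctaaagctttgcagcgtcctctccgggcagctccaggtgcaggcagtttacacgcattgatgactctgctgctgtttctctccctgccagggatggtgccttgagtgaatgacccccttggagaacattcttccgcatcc
DKK1 (chr10:52314031-52314330, plus strand): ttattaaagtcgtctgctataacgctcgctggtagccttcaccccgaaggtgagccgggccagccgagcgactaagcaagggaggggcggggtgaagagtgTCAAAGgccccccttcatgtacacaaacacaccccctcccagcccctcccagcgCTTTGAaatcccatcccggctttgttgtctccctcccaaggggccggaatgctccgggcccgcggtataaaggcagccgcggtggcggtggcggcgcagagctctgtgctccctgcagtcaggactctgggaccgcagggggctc
The SP5 window held 3 matches, beginning 147, 109 and 83 bases before the start, and the middle match is the longer form. PROM1 had 4 windows for its different starts, and only the 1 shown held a match, 179 bases before the start. The DKK1 window held 2 matches, 149 and 95 bases before the start. A match describes the letters in these windows and does not show that a factor binds there.

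The first comparison asked how the resistant lines differed from their parents. The differences of 2-fold or more within a line were all in the lower direction, and they lay in receptors, 1 transcription factor and stem cell markers. In resistant HT29, LGR5, MYB and PROM1 were 2-fold or more lower, 3 of the 30 genes, beside 1.72% of all genes tested (5.14% in either direction). In resistant Colo205, FZD10, SMOC2 and PROM1 were, again 3 of 30, beside 2.51% of all genes. FZD10 passed the filter through parental Colo205 alone, so its difference there could only be downward, and it supports no direction. Of the 30 genes, 0 were 2-fold or more higher in either line, where the shares of all genes were 3.42% in HT29 and 0.908% in Colo205. PROM1 alone was 2-fold or more lower in both lines, as were 0.234% of all genes.

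Smaller differences ran the same way. At 1.5-fold or more, 6 of the 30 genes were lower and 1 higher in resistant HT29, beside 6.89% and 8.1% of all genes (15% in either direction). In resistant Colo205, 8 were lower and 2 higher, beside 7.78% and 2.99%. The median difference of the 30 genes was -0.27 in HT29 and -0.24 in Colo205, and that of all genes -0.01 and -0.02. At any size, 13 of the 30 genes were lower in each derivative, beside 29.6% of all genes. CTNNB1, WNT11 and RNF43 (3 of 30) were higher in each, beside 25.7%, although centring arrays on their medians left 1. The other 14 had opposite signs. As the list was drawn up with such results known, these shares describe the list and do not set it apart from other genes.

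The 2 resistant arrays were set against the 2 parental arrays with limma, a linear model fitted to all genes that steadies each gene's spread with that of the others, with the cell line as a block. No gene passed an adjusted p of 0.05 in limma (0 of 13651, or 0%, smallest adjusted p = 0.706), so 0 of the 30 did. At an unadjusted p under 0.05, 4 of the 30 were lower, beside 4.07% of all genes, and 0 were higher, beside 2.73%, of 928 genes in all (6.8%). Those 4 were ASCL2, SP5, PROM1 and LRP6. The limma interval of the mean difference was narrow where the lines were alike and wide where 1 line carried the difference. For ASCL2 the mean difference was -0.79, with a 95% interval from -1.31 to -0.27 over the 2 pairs (limma adjusted p = 0.706). For LGR5 it was -1.65, with an interval from -4.46 to 1.15 (limma adjusted p = 0.707). Whether the lines responded differently could not be tested, since no array repeats a line and state.

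**Figure D2:**
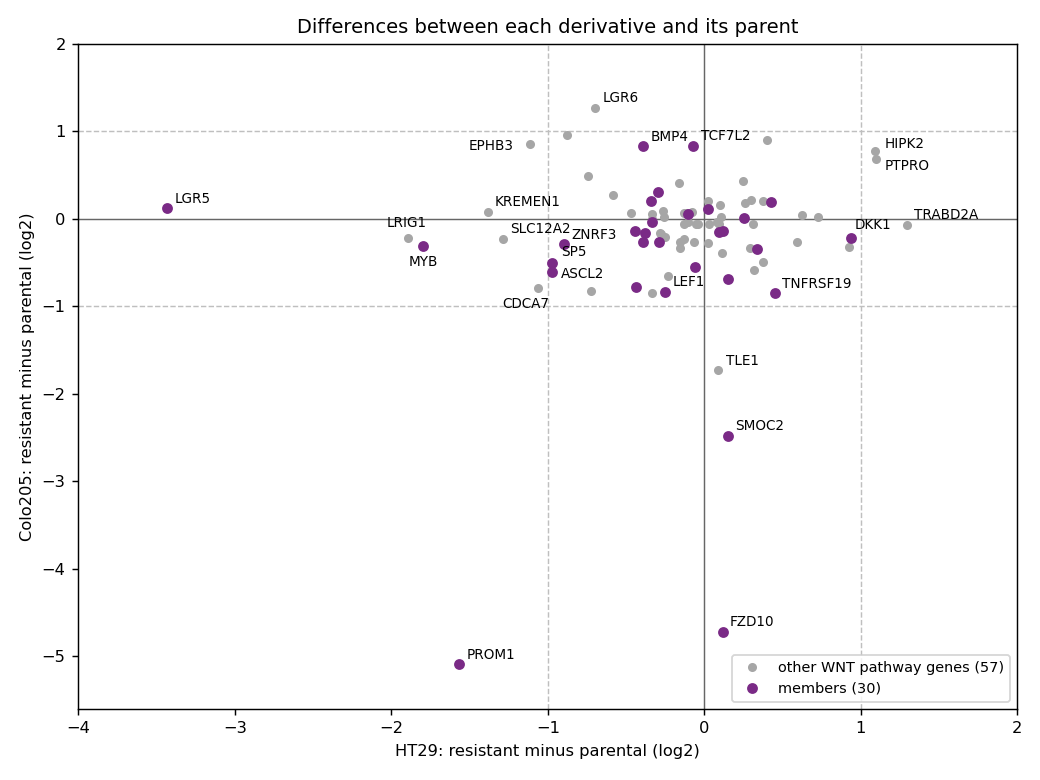
Resistant minus parental log2 difference of each gene in HT29 (horizontal) and Colo205 (vertical). Purple points are the 30 listed genes, grey points 57 other genes of the pathway, and dashed lines mark 2-fold. LGR5 lies far to the left near 0 in Colo205, FZD10 and SMOC2 lie far down near 0 in HT29, and PROM1 is low on both axes.

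Among the membrane receptors, the largest difference was that of LGR5 in HT29 and that of FZD10 in Colo205. The filter fixed the direction for FZD10, so the pair supports no contrast between the lines. LGR5, a receptor for R-spondins and the defining marker of crypt stem cells, read 8.53 in HT29 and 5.10 in HT29RC, against 9.94 in Colo205 and 10.06 in Colo205RC. The difference was -3.43 in HT29, a 10.8-fold lower reading, and 0.12 in Colo205. The reading in resistant HT29 lay below the filter value, so the size is not exact. The second LGR5 probe set, with low readings from 5.50 to 6.67, differed by 0.12 in HT29 and 0.45 in Colo205. Its relative LGR4, also an R-spondin receptor, read 11.03 and 10.59 in HT29 and 9.45 and 9.32 in Colo205.

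FZD10, a frizzled receptor, read 8.42 in Colo205 and 3.71 in Colo205RC, lower by -4.72 or 26.3-fold, with the derivative below the filter value. In HT29 it read 3.27 and 3.39. It was thus above the filter value on 1 array of the 4. FZD7 read 7.71 and 7.02 in Colo205, with its 2 probe sets at -0.70 and -0.68, and 8.64 and 8.79 in HT29. FZD5 differed by -0.33 in HT29 and -0.03 in Colo205, and FZD3 by 0.12 and -0.14. The mean of FZD3 over the lines, -0.01, changed sign under quantile normalization (0.04). LRP6, the co-receptor that passes the signal inward, was lower in both lines. It read 10.03 and 9.59 in HT29 and 10.04 and 9.26 in Colo205, with a mean difference of -0.61 and a 95% interval from -1.12 to -0.10 (limma adjusted p = 0.706). Its 3 probe sets gave differences between -0.44 and -0.26 for HT29, and between -0.78 and -0.00 for Colo205. LRP5 differed by -0.39 and -0.27. In all, LGR4, FZD5, LRP5 and LRP6, 4 of the 8 receptors, were lower in each derivative, beside 29.6% of all genes. Of the 8, 0 were higher in each, beside 25.7%. These counts describe the 8 receptors and do not set them apart from other genes. The second FZD5 probe set was higher in each, at 0.19 and 0.27.

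The genes for ligand release and for the beta-catenin destruction complex differed little between resistant and parental arrays. WLS, which carries WNT proteins to the cell surface, differed by -0.38 in HT29 and -0.16 in Colo205. WNT11, a WNT ligand, differed by 0.25 and 0.01. CTNNB1, which encodes beta-catenin, read 12.13 and 12.56 in HT29 and 12.83 and 13.02 in Colo205, higher in both resistant lines by 0.43 and 0.19. Its limma mean difference was 0.31, with a 95% interval from -0.16 to 0.78, and of its 3 probe sets 1 was lower in Colo205RC, at -0.36. APC, the scaffold that presents beta-catenin for destruction, differed by -0.34 and 0.20. AXIN1, the other scaffold, differed by 0.09 and -0.15, and its mean of -0.03 changed sign under quantile normalization (0.03). Each of these differences was smaller than 1.5-fold.

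Among the feedback inhibitors, which are WNT targets themselves, AXIN2 and ZNRF3 did not move alike. AXIN2, the most widely used readout of the pathway, read 10.10 and 10.44 in HT29 and 11.14 and 10.80 in Colo205. Its differences of 0.34 and -0.34 had opposite signs, with a mean of -0.00 and a 95% interval from -0.68 to 0.68. ZNRF3, a ubiquitin ligase that removes frizzled receptors from the membrane, read 10.12 and 9.22 in HT29 and 11.10 and 10.81 in Colo205. It was lower in both derivatives, by -0.90 and -0.29. RNF43, its partner ligase, differed by 0.02 and 0.12, and NOTUM, which inactivates WNT ligands, by -0.10 and 0.05. NKD1, which binds dishevelled, differed by -0.29 and 0.31, and another of its probe sets by 0.44 and 0.38. Its mean of 0.01 changed sign when arrays were centred on their medians (-0.02). DKK1, a secreted antagonist of LRP5 and LRP6, read 12.14 in HT29 and 13.08 in HT29RC. That difference of 0.94 was the largest positive one among the 30 genes in either line. In Colo205 it read 4.14 and 3.92, below the filter value on both arrays.

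The transcription factors were lower in both resistant lines in 5 of 6 cases, beside 29.6% of all genes, also when arrays were centred on their medians or quantile normalized. Their median difference was -0.63 in HT29 and -0.41 in Colo205. MYB, needed for colonic crypt progenitors, read 10.73 in HT29 and 8.93 in HT29RC, lower by -1.80, against 13.00 in Colo205 and 12.70 in Colo205RC. The second MYB probe set differed by -0.95 and -0.53. ASCL2, which sets the stem cell programme together with WNT signals, read 8.38 and 7.41 in HT29 and 11.44 and 10.83 in Colo205, differences of -0.97 and -0.61. SP5, a direct target that in turn represses other targets, read 7.20 and 6.23 in HT29 and 10.08 and 9.58 in Colo205. Its differences were -0.97 and -0.50, with a mean of -0.74 and a 95% interval from -1.30 to -0.17 (limma adjusted p = 0.706). ASCL2 and SP5 thus lay just short of 2-fold in HT29. LEF1 differed by -0.83 in Colo205, from 10.49 to 9.66, and read below the filter value on both HT29 arrays (5.46 and 5.21). Its other probe set past the filter differed by -0.24 in HT29 and 0.15 in Colo205. SOX9, a crypt transcription factor, differed by -0.29 and -0.26, and its second probe set by -0.48 and -0.23.

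TCF7L2, the main partner of beta-catenin in the intestine, was the exception. It read 10.75 in Colo205 and 11.59 in Colo205RC, higher by 0.83, against 12.19 in HT29 and 12.12 in HT29RC. All 6 of its probe sets past the filter were higher in resistant Colo205, by 0.34 to 0.99. In HT29 they ranged from -0.34 to 0.07. Its mean difference was 0.38, with a 95% interval from -0.44 to 1.21 (limma adjusted p = 0.747).

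Among stem cell markers and other targets, PROM1 and SMOC2 were the lowest. PROM1 encodes CD133, a membrane protein of intestinal stem cells and of many tumour cells. It read 11.80 in HT29 and 10.23 in HT29RC, against 9.48 in Colo205 and 4.39 in Colo205RC, so the derivative was the lower one each time. Its differences were -1.57 and -5.09, a 2.96-fold and a 34.1-fold lower reading, the second of which rests on a value below the filter. The mean difference of PROM1 was -3.33, with a 95% interval from -6.11 to -0.55 (limma adjusted p = 0.706), and its lower value in the derivative held in 2 of 2 lines. SMOC2, a secreted matrix protein of crypt stem cells, read 12.22 and 9.74 in Colo205, and its 2 probe sets differed by -2.48 and -2.07. In HT29 it read 4.15 and 4.30, below the filter value.

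CD44, an adhesion receptor and WNT target, read 11.69 and 11.14 in Colo205 and 12.56 and 12.50 in HT29. For Colo205 its 9 probe sets above the filter value lay between -0.67 and 0.01, and for HT29 between -0.06 and 0.45. TNFRSF19, a receptor of the TNF family expressed in crypt stem cells, read 9.71 and 8.86 in Colo205 and 3.41 and 3.86 in HT29, where both readings lay below the filter value. BMP4, a growth factor that opposes the stem cell state in normal crypts, read 11.41 in Colo205 and 12.24 in Colo205RC, against 11.62 in HT29 and 11.23 in HT29RC. Its differences of -0.39 in HT29 and 0.83 in Colo205 had opposite signs. OLFM4, a marker of human crypt base cells, read 4.38 or less on every array, and DKK4 and APCDD1 read 5.55 and 4.24 or less.

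Some markers of differentiated enterocytes were higher in the HT29RC array in which LGR5 and MYB were lower. Of 6 such markers past the filter, 3 were 2-fold or more higher in resistant HT29, beside 3.42% of all genes: CDH17 by 5.94, FABP1 by 2.30 and KRT20 by 1.58. CDH17 and FABP1 read below the filter value in parental HT29, at 5.30 and 4.60, so these sizes are not exact. CA1 differed by 0.01, GUCA2A by -0.09 and CA2 by -0.37. In resistant Colo205, 4 of the 6 were lower at any size, beside 7059 of all 13651 genes. They were FABP1 at -2.17, KRT20 at -0.84, GUCA2A at -0.55 and CA2 at -0.16. KRT20 and CA2 read below the filter value on both Colo205 arrays. CDH17 was higher there by 1.37 and CA1 by 0.47. The log2 of the summed level of all 8 markers was 12.86 and 10.83 in the parental arrays of HT29 and Colo205 and 14.49 and 11.63 in the resistant arrays. SLC26A3 and AQP8 lay below the filter value on all 4 arrays. For 7 goblet and secretory markers the summed level was 10.30 and 12.75 in the parental arrays of HT29 and Colo205. It was 10.05 and 11.80 in the resistant arrays. Of the 6 past the filter, 0 were 2-fold or more higher in either line, beside 3.42% and 0.908% of all genes. TFF3 was 2-fold or more lower in Colo205RC (-1.11), 1 of 6, beside 2.51%. The part of these markers, and of the spike controls named above, in the lower stem cell genes was not tested. In RNA from whole cultures, fewer cells expressing a gene and less RNA per cell cannot be told apart.

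**Figure D3:**
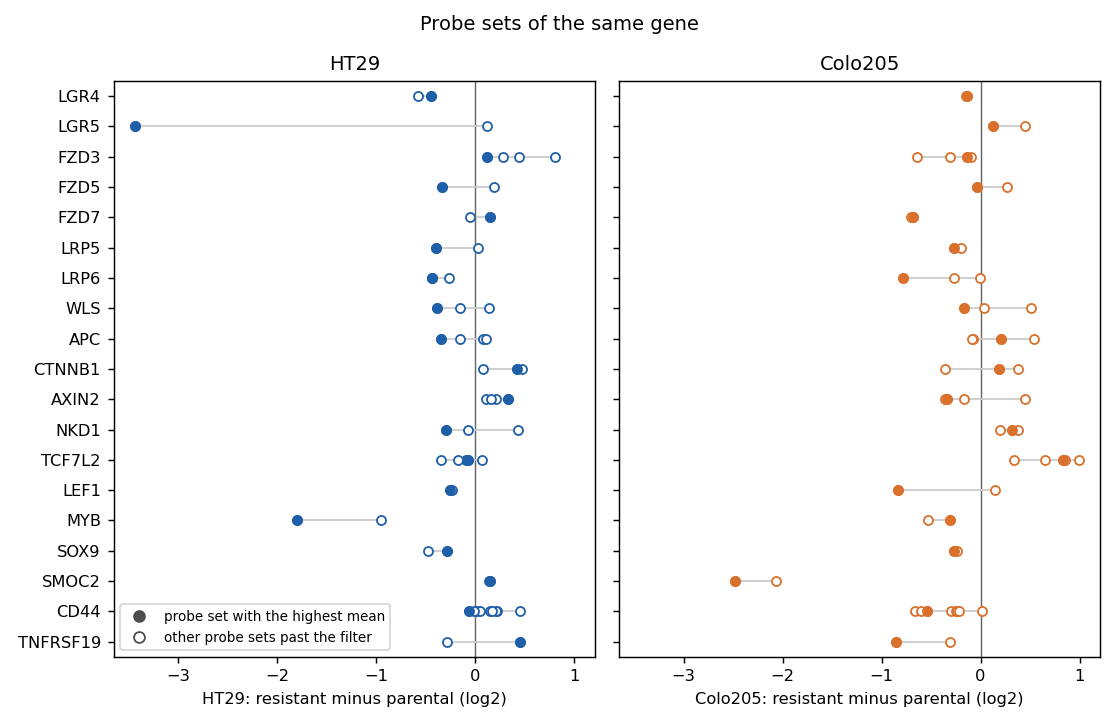
Resistant minus parental log2 difference of every probe set past the filter, for the 19 genes with more than 1 such probe set, in HT29 (left) and Colo205 (right). Filled circles are the probe sets used in the text. Both probe sets of MYB in HT29, and of SMOC2 and FZD7 in Colo205, lie on the same side of 0, while those of LGR5 in HT29 lie far apart.

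Probe sets of the same gene give a measure of technical scatter. Over 6615 genes with several probe sets past the filter, the pooled SD of the difference between resistant and parental arrays was 0.30 in each line. This is scatter on the same arrays and says nothing of the spread between cultures. Within it in both lines lay WNT11 and RNF43, counted above as higher in each derivative, and SOX9, counted as lower in each. The differences of AXIN1 and NOTUM lay within it in both lines. For FZD3 the probe set used did too, but all 4 of its probe sets were higher in HT29RC, by 0.12 to 0.81, and lower in Colo205RC, from -0.64 to -0.10. FZD10, PROM1, ZNRF3, SP5, DKK1, BMP4, WNT11, AXIN1, RNF43 and NOTUM had 1 probe set each, and only 1 of the 2 ASCL2 probe sets passed the filter.

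Nearby genes were compared as a measure of shifts along a chromosome. For each gene, the median difference of the 20 nearest measured genes was taken, 10 on either side. Around LGR5 on chromosome 12 it was -0.10 in HT29, around PROM1 on chromosome 4 it was -0.02 in Colo205, and around SMOC2 on chromosome 6 it was 0.05. Around FZD10, also on chromosome 12, it was 0.07 in Colo205. The neighbours of LRP6, elsewhere on chromosome 12, had a median of -0.34 in Colo205, where LRP6 itself was at -0.78, and those of CD44 on chromosome 11 had -0.32, where CD44 was at -0.55. The neighbours of MYB had 0.09 in HT29.

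The second comparison set HT29 against Colo205. Here the differences were larger: 5 of the 6 transcription factors and the stem cell markers SMOC2 and TNFRSF19 were higher in Colo205, and DKK1, CD44 and LGR4 were higher in HT29. PROM1 and TCF7L2 also read higher in HT29, by 2.32 and 1.44 between the parents, without passing the test. Between the parental lines, 17 of the 30 genes were 2-fold or more apart (56.7%), 12 higher in Colo205 and 5 in HT29. The shares of all genes were 18.7% in either direction, 11.6% higher in Colo205 and 7.08% higher in HT29. On the probe sets used, FZD10, SMOC2, TNFRSF19 and LEF1 passed the filter through Colo205 alone, and DKK1 through HT29 alone. Their directions were thus fixed by the filter and support none. Of those 17, 12 were still 2-fold or more apart in the same direction between the derivatives (70.6%), as were 67.9% of the 2547 genes of the whole table that were 2-fold or more apart between the parents. Between the derivatives, 5 of the 30 were 2-fold or more higher in HT29RC and 11 in Colo205RC, beside 9.24% and 10.4% of all genes (19.6% in either direction). The median size of the parental difference was 1.17 for the 30 genes and 0.37 for all genes.

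Limma, with the state as a block, called 14 of the 30 genes between the lines at an adjusted p of 0.05, beside 15.2% of all genes. Of these, 11 were higher in Colo205 and 3 in HT29, where the shares of all genes were 8.94% and 6.22%. DKK1, SMOC2, TNFRSF19 and LEF1 are among the 14, and their calls support no direction, as the filter fixed it. The 2 arrays of a line are a parent and its own derivative, not independent cultures of 1 kind. The limma p-values thus set the line difference against how far the change from parent to derivative differed between the lines. They do not cover the spread between separate cultures.

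**Figure D4:**
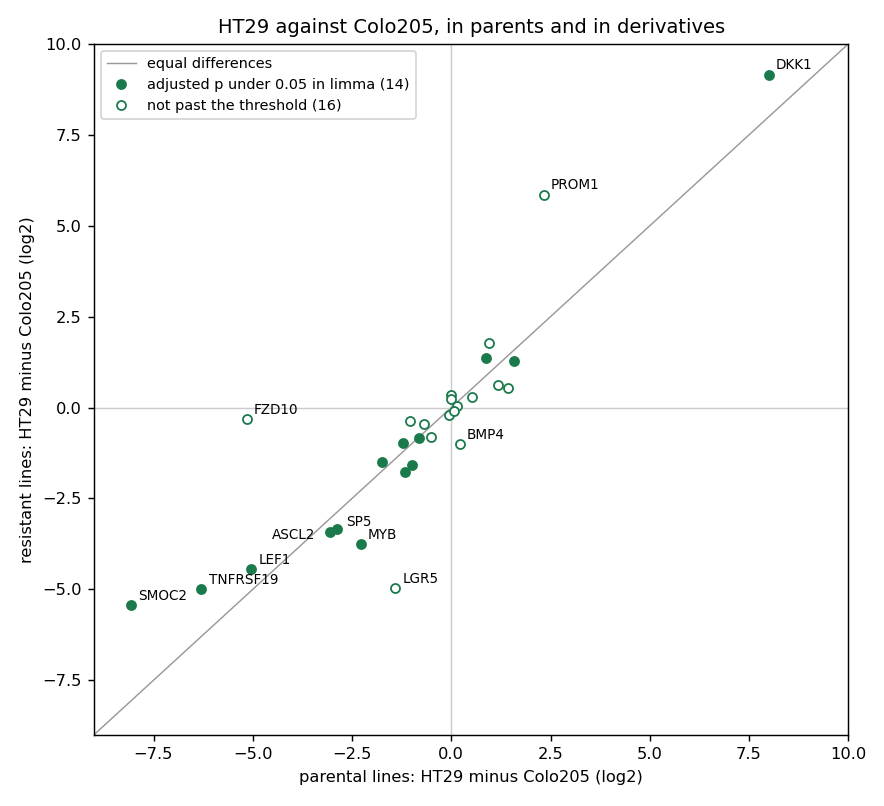
HT29 minus Colo205 log2 difference between the parental arrays (horizontal) and between the resistant arrays (vertical) for the 30 genes. Filled points passed an adjusted p of 0.05 in limma, open points did not, and the grey line marks equal differences. DKK1 lies at the upper right and SMOC2, TNFRSF19 and LEF1 at the lower left, while LGR5, PROM1 and FZD10 lie far from the line.

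DKK1, the secreted inhibitor, was far apart between the lines. It read 12.14 and 13.08 in the HT29 arrays against 4.14 and 3.92 in the Colo205 arrays, so the lines did not overlap. The mean difference, HT29 minus Colo205, was 8.58, with a 95% interval from 7.58 to 9.58 (limma adjusted p = 0.00774). As the Colo205 readings lay below the filter value, the size is not exact, and the filter fixed the direction. LGR4 was higher in HT29 by 1.43 (limma adjusted p = 0.0256) and CD44 by 1.12 (limma adjusted p = 0.0476). The LGR4 call was lost when probe sets were averaged (0.59, limma adjusted p = 0.0663) and the CD44 call under quantile normalization (1.12, limma adjusted p = 0.0521).

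Of the 6 transcription factors, 5 were higher in Colo205, and LEF1 among them passed the filter through Colo205 alone on the probe set used. LEF1 had a mean difference of -4.74 with a 95% interval from -5.37 to -4.11 (limma adjusted p = 0.00871). It read 10.49 and 9.66 in Colo205 and below the filter value in HT29, although a second LEF1 probe set read low in both lines, with a parental difference of 0.41. ASCL2 differed by -3.24 (limma adjusted p = 0.00959), SP5 by -3.11 (0.0112) and MYB by -3.02 (0.0330). The 20 neighbours of MYB had a median of -1.14 between the parental lines. SOX9 differed by -0.82 (limma adjusted p = 0.0495), with a median of -0.70 for its neighbours between the parents, and its call was lost under quantile normalization (limma adjusted p = 0.0531) and when its probe sets were averaged (0.0562). TCF7L2 leaned the other way, at 0.98, and did not pass (limma adjusted p = 0.106).

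The stem cell markers did not all run one way. PROM1, at 4.09, and CD44 were on the HT29 side, and BMP4, at -0.40, did not pass (limma adjusted p = 0.503). SMOC2 read 12.22 and 9.74 in Colo205 and 4.15 and 4.30 in HT29, a mean difference of -6.75 (limma adjusted p = 0.0220). For SMOC2, TNFRSF19 and LEF1 both HT29 readings lay below the filter value, so the sizes are not exact. From the other SMOC2 probe set alone the difference was -2.54 and did not pass (limma adjusted p = 0.0911). TNFRSF19 had -5.64 (0.0121), but its second probe set, with readings from 6.11 to 6.42, differed by -0.03 between the parents, and its neighbours had a median of -0.69. Also higher in Colo205 and called were WNT11 at -1.61, NKD1 at -1.48, ZNRF3 at -1.28 and FZD3 at -1.09, with limma adjusted p-values from 0.0198 to 0.0452. The ZNRF3 call was lost when probe sets with the suffix _x_at or _s_at were left out (limma adjusted p = 0.0540). Its own probe set was kept there and its difference was unchanged. The NKD1 probe sets past the filter ran from -3.69 to -0.15 between the parents. The neighbours of FZD3 had a median of -0.63 between the parents. AXIN2, at -0.70, did not pass (limma adjusted p = 0.135).

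For several of the 30 genes the line difference read 1 or more apart on the log2 scale between the parents and between the derivatives, which could not be tested. That of LGR5, HT29 minus Colo205, was -1.41 between the parents and -4.97 between the derivatives. PROM1 went from 2.32 to 5.85 and MYB from -2.28 to -3.77. The difference of FZD10 went from -5.15 to -0.32 and that of SMOC2 from -8.06 to -5.43. Those of TNFRSF19 (-6.29 and -4.99), BMP4 (0.21 and -1.01) and DKK1 were also apart. In the parents DKK1 read 12.14 in HT29 and 4.14 in Colo205. In the derivatives DKK1 read 13.08 in HT29RC and 3.92 in Colo205RC, a larger difference of 9.16. LGR5 (limma adjusted p = 0.113), PROM1 (0.0747) and FZD10 (0.238) accordingly did not pass as line differences. RNF43, AXIN1, NOTUM, LRP5 and LRP6 differed by 0.33 or less between the lines in either state.

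Other genes of the pathway were taken from a list of 89, of which 57 passed the filter. Limma called 0 of them between resistant and parental arrays. In resistant HT29, 5 of the 57 were 2-fold or more lower and 3 higher, beside 1.72% and 3.42% of all genes. Those lower were LRIG1, a brake on growth factor receptors that marks crypt stem cells (-1.89), KREMEN1, a receptor for DKK proteins (-1.38), the ion transporter gene SLC12A2 (-1.28), the Eph receptor gene EPHB3 (-1.11) and CDCA7 (-1.06). LRIG1, SLC12A2, EPHB3 and CDCA7 belong to the 12 crypt and target genes past the filter, of which 6 were 1.5-fold or more lower in HT29 and 2 higher, beside 6.89% and 8.1% of all genes. In Colo205, 1 was lower and 4 were higher, beside 7.78% and 2.99%, and the median of the 12 was -0.50 in HT29 and 0.25 in Colo205. Of the 57, those 2-fold or more higher in resistant HT29 were TRABD2A, an inhibitor of WNT ligands (1.30), PTPRO (1.10) and the kinase gene HIPK2 (1.09). In resistant Colo205, LGR6, a relative of LGR5, was 2-fold or more higher (1.27) and TLE1, a co-repressor of TCF proteins, was lower (-1.73), 1 of 57 each, beside 0.908% and 2.51% of all genes.

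Of these genes, CDCA7 was lower in both resistant lines, reading 11.49 and 10.43 in HT29 and 11.62 and 10.83 in Colo205. HIPK2 was higher in both, by 1.09 and 0.77, and PTPRO by 1.10 and 0.68. EPHB3 and LGR6 had opposite signs in the lines, with EPHB3 at -1.11 and 0.85 and LGR6 at -0.70 and 1.27. The median difference of the 57 genes was -0.08 in HT29 and -0.04 in Colo205. Of 18 other WNT ligands listed, 7 passed the filter, and 0 of them were 2-fold or more apart in either line. Between the lines limma called 7 of the 57, beside 15.2% of all genes, with 4 higher in Colo205 and 3 in HT29. KREMEN1 had the largest of these differences, at -3.89 (limma adjusted p = 0.0224). CTNNBIP1, an inhibitor of beta-catenin, NKD2 and PTPRO were also higher in Colo205, at -1.74, -1.69 and -1.48. TLE1, the receptor gene ROR1 and the cyclin gene CCND1 were higher in HT29, by 2.84, 1.45 and 1.12, and for these 6 genes limma adjusted p ran from 0.0165 to 0.0485.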

How the data were processed

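Expression was measured on 4 Affymetrix arrays. The deposited log2 values for 54675 probe sets were summarised by the authors before deposit. MAS5 and RMA appear in the submitters' processing notes, and which of them made the values is not stated there. Of the probe sets, 41091 named 1 gene in the platform annotation, 1801 named several, 11721 none and 62 were controls. RefSeq (GRCh38.p14) gene identifiers matched 41037 and changed 0 symbols. The brightest probe set on average stood for a gene, and genes whose highest value lay under 5.73 were left out. Differences are resistant minus parental, or HT29 minus Colo205. Limma 3.58.1 in R 4.3.3 fitted cell line and state together, with 1 residual degree of freedom and 2.54 from the prior, two-sided, with Benjamini-Hochberg adjustment over all genes. The cell line pairs each derivative with its parent. The fit was tested on simulated data in which both lines changed alike. This checked the size of the estimates and does not cover genes that changed differently in the lines. Whether cultures were independent is not stated, so p-values measure only the spread between these samples. The number of arrays limits the precision. Alternatives covered scaling, probe set, filter, fold, prior, block and leaving out a line. Members and gene lists were chosen with earlier results of these data known. All 35 members, other pathway genes 2-fold apart in a line or called, and listed markers are eligible to be named.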

Additional observations from a re-analysis of the deposited data

Results flagged for a closer look

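AXIN2, TNFRSF19 and BMP4 had differences between resistant and parental arrays that ran in opposite directions in the lines and exceeded the pooled scatter between probe sets of a gene (0.30) in each. AXIN2 was at 0.34 in HT29 and -0.34 in Colo205, TNFRSF19 at 0.45 and -0.85, and BMP4 at -0.39 and 0.83. Whether these differences depart from each other was not tested, as each line had 1 array a state. TNFRSF19 read below the filter value in HT29, and its other probe set past the filter had -0.28 and -0.31. The AXIN2 probe sets ranged from -0.36 to 0.45 in Colo205.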

How the results depend on the processing

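The number of arrays limits these results: a line has no replicate of a state, and a fit without 1 line has no residual degrees of freedom, so leaving out a line, or the arrays of 1 state, gave no count of called genes. Limma called 0 genes between resistant and parental arrays under all 9 alternatives run. Without the replicate block it called 0, with 131 at an unadjusted p under 0.05 in place of 928. The line comparison gave 2070 genes, and 2247 without the replicate block. No count of 2-fold genes among the members moved by over 1.5 times under quantile normalization, either other choice of probe set or either other filter. With each array centred on its median, 5 members were 2-fold or more apart in HT29 in place of 3, as SP5 and ASCL2 passed. At 1.5-fold the counts were 7 in HT29 and 10 in Colo205, and at 3-fold 10 members were apart between the parents in place of 17.

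Leaving out a line leaves the difference in the other, and for 14 members the sign of the mean then depended on the line. The values ran from -3.43 to 0.12 for LGR5, -0.34 to 0.34 for AXIN2, -0.14 to 0.12 for FZD3, -0.68 to 0.15 for FZD7, -4.72 to 0.12 for FZD10, -0.15 to 0.092 for AXIN1, -0.34 to 0.20 for APC, -0.29 to 0.31 for NKD1, -0.10 to 0.053 for NOTUM, -0.22 to 0.94 for DKK1, -0.070 to 0.83 for TCF7L2, -2.48 to 0.15 for SMOC2, -0.85 to 0.45 for TNFRSF19 and -0.39 to 0.83 for BMP4. Quantile normalization turned the mean of FZD3 to 0.036 and of AXIN1 to 0.034, and the line difference of NOTUM to 0.012. Median centring turned NKD1 to -0.024. Averaging probe sets turned FZD3 to 0.058, FZD5 to 0.024, APC to 0.042 and the line difference of WLS to -0.18. Leaving out probe sets with the suffix _x_at or _s_at turned FZD5 to 0.23, WLS to 0.32 and APC to 0.33, and the line differences of WLS to -0.83 and APC to -0.79; these are other probe sets of the same genes. Of the 14 line calls among the members, 5 were lost under at least 1 alternative: CD44, LGR4, SMOC2, SOX9 and ZNRF3. FZD7 gained a call with averaged probe sets. Without those suffixes PROM1 has no probe set, and 2 members were 2-fold or more apart in each line.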
